A study of Mus musculus with 6 samples.

Results

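The 35 genes described here encode the proteins that assemble and form the core of the spliceosome's small nuclear ribonucleoproteins (snRNPs), and they were measured in blood stem cells with and without the arginine methyltransferase PRMT5. They were chosen by symbol from a list of PRMT5 adaptor proteins (4 genes), the SMN complex (9), the Sm ring (7), proteins specific to the U1 and U2 snRNPs (5), the LSm ring (8) and the U7 ring (2). All 35 were found among the 24110 genes of the deposited table, and all 35 passed the filter on low values that left 14113 genes for testing. RNA was sequenced from hematopoietic stem cells of C57BL/6 mice, sorted for absent Lineage markers and CD48 and for Sca-1 and CD150. The control group carried 2 floxed copies of Prmt5 (Prmt5 fl/fl), and the other group carried the deleted alleles (Prmt5 KO), each 7 days after induction. Every group held 3 libraries, and every library pooled cells of 2 mice that were matched across genotypes by litter and sex. The agent and the Cre driver used for induction, and whether the fl/fl animals carried Cre or received the agent, were not stated in the labels.

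Each spliceosomal snRNP is built on a small nuclear RNA that is wrapped by a ring of Sm proteins. PRMT5 works in the methylosome, bound to its obligate partner WDR77 and to 1 of several adaptors, and symmetrically dimethylates arginines in arginine-glycine repeats of Sm proteins. The SMN complex recognises these methylated tails and loads the Sm ring onto the RNA in the cytoplasm. Related LSm proteins form rings on the U6 RNA in the nucleus, on messenger RNAs bound for decapping in the cytoplasm, and, with Sm proteins, on the U7 RNA that processes histone transcripts.

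The arginine-glycine repeats can be read from the coding sequences of the members, and they are shown because they are the stretches on which PRMT5 is known to act. In the principal transcripts of GENCODE M21, adjacent arginine and glycine codons numbered 10 in Snrpd1, 8 in Snrpb, 7 in Snrpd3, 8 in Lsm4, 6 in Lsm11, 8 in Snrnp70 and 7 in Gemin5. No other member had 4 or more such pairs. Among all 21602 coding genes of that annotation, 15.5% had at least 4 pairs, against 7 of the 35 members (20%), so the count of pairs alone does not set the members apart. Their spacing differs among the members shown: Snrpd3 has 5 pairs in 69 bases and Snrpb has 3 in 111. The 2 stretches below run 5′ to 3′ in the coding strand (GRCm38), with the arginine-glycine codon pairs in capitals. They cover codons 97 to 119 of Snrpd3 and 112 to 148 of Snrpb.
Snrpd3: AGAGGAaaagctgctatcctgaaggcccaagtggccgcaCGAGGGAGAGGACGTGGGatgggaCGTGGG
Snrpb: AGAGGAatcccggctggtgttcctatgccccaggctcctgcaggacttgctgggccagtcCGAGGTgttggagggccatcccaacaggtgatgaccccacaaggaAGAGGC

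The libraries held 37834096 to 44704636 reads in genes, and all levels below are reads scaled by the authors to a total of 44704636. Prmt5 itself was at 6010 to 6076 scaled counts in fl/fl, against 897 to 1056 in KO, so each library matched its label (limma, adjusted p = 6.18e-04). All 7 stem cell markers were present, with Procr at 2334 to 4151 scaled counts. The gate excludes CD48, and Cd48 was at 446 to 757. A library from each genotype stood apart. In Prmt5 fl/fl replicate 3, the median log2 difference from the mean of its 2 fellow controls was 0.514 for 816 genes under 1000 bases and -0.614 for 3507 genes of 4000 bases or more. The 6 granulocyte markers in the table summed to 801937 in Prmt5 KO replicate 3 (1.79% of the library), against 17849 to 203852 elsewhere. Of these, S100a8, S100a9, Camp and Ngp were highest in that library, whereas Elane and Mpo were highest in fl/fl replicate 1. Elane and Mpo were at 14623 and 53564 there, against 4843 and 15944 in KO replicate 3. The 3 T cell markers summed to 400.5 in KO replicate 3, against 5.91 to 28.9 in the other 5 libraries. Markers of megakaryocytes and platelets summed to 50778 to 77526 in fl/fl and 21705 to 47875 in KO. Of these, 1 of 7 was past the test, Itga2b, which was lower. Ppbp went the other way (log2 0.767), and Ppbp, Pf4 and Gp9 overlapped between genotypes. Markers of red cell precursors summed to 3199 to 7695 in fl/fl and 2108 to 2509 in KO, with 1 of 6 tested past it, also lower. Hba-a1 was listed at 0 in every library. The part of these other cells in the results below was not tested, and in bulk RNA fewer cells of a type cannot be told apart from less RNA per cell.

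Loss of Prmt5 left the transcripts of its adaptors, the assembly complex and the rings without a change that passed the test. None of the 35 members was called by limma (adjusted p at least 0.207), against 0.73% of all genes tested, and edgeR and DESeq2 also called 0. At an unadjusted p below 0.05, 1 member was on the higher side (Smn1, 2.86% of members, against 4.58% of all genes) and 1 on the lower side (Lsm10, 2.86% against 13.6%). The KO libraries all lay above the fl/fl libraries for 3 members, Smn1, Snrpc and Snrpa (8.57%, against 8.30% of all genes), and all below for 1, Lsm10 (against 19.9%). The members' counts on the higher side were near the background, so they are no result about the members. The median log2 fold change of the members was 0.105, beside -0.048 for all genes, and 23 of 35 values were above 0. The members' median log2 value was 11.84 to 12.01 across libraries, against 10.34 to 10.51 for all genes. The part of this higher level in the interval widths was not tested. Relative to the library total, the unadjusted 95% interval lay within 2-fold in either direction for 33 of 35 members (94.3%), against 59.97% of all genes. The exceptions were Lsm10, whose interval reached a log2 of -1.12, and Gemin5, whose interval reached 1.28. Both values move with fl/fl replicate 3, as given for each gene.

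**Figure D1:**
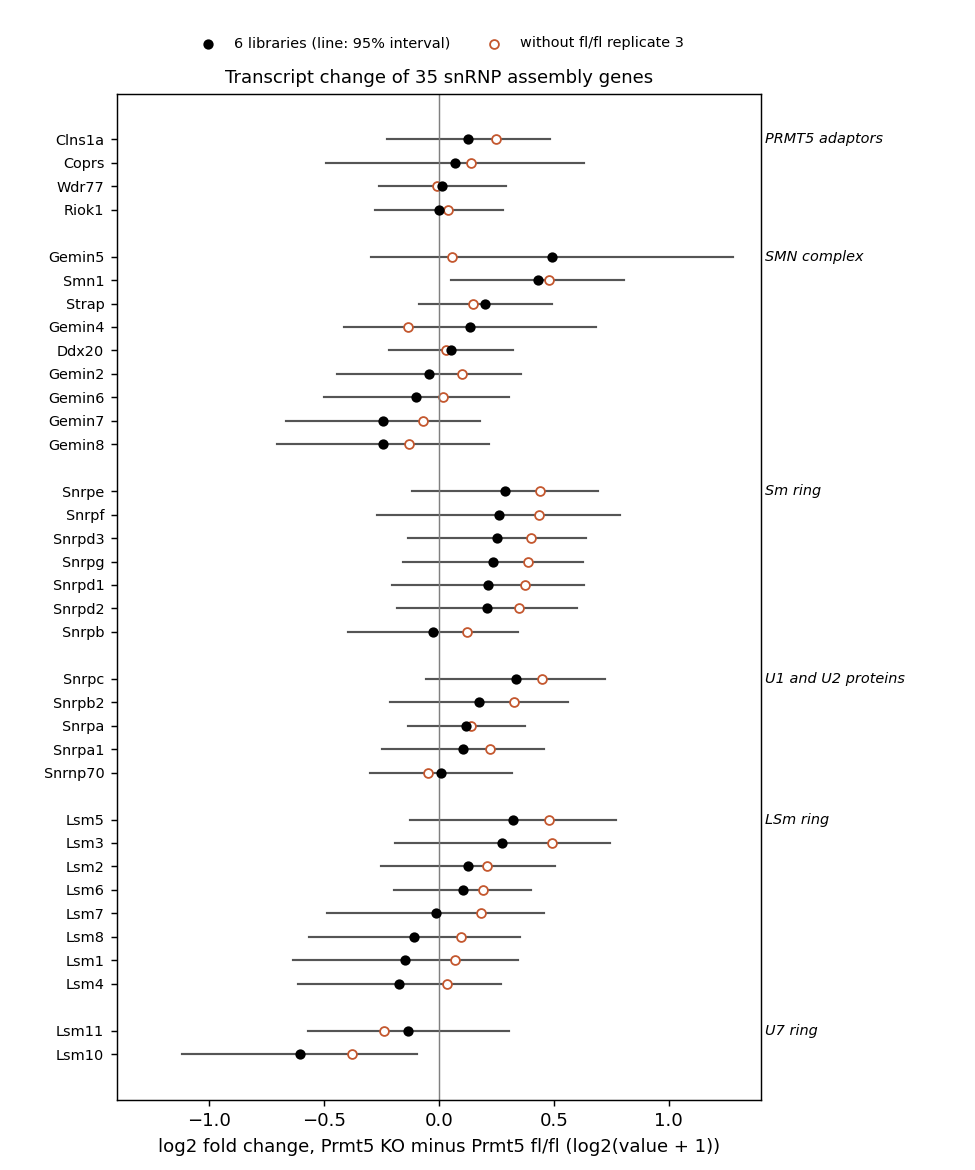
Log2 fold change (Prmt5 KO minus Prmt5 fl/fl, on log2(value + 1)) of the 35 members by role; filled points use all 6 libraries with the 95% interval as a line, and open points leave out Prmt5 fl/fl replicate 3. The intervals of Smn1 and Lsm10 do not cross 0, neither gene passed the test after adjustment, and the open points of all 7 Sm ring genes lie to the right of the filled ones.

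The PRMT5 adaptors gave fold changes near 0 while Prmt5 was at 6037 ± 34.9 scaled counts in fl/fl and 1001 ± 90.2 in KO (SD, n = 3 each). Wdr77, the WD-repeat protein that forms a complex with PRMT5, was at 9701, 9965 and 9387 scaled counts in fl/fl, against 10048, 10662 and 8743 in KO. The KO values lie on both sides of the fl/fl values, and the 95% interval of the log2 fold change runs from -0.26 to 0.29, a fold of 0.834 to 1.22. Riok1, an atypical kinase that competes with pICln for the enzyme and brings other substrates, was at 3353, 3717 and 3842 in fl/fl, against 3694, 3705 and 3500 in KO, with an interval of -0.28 to 0.28. Clns1a, which encodes pICln, the adaptor that presents Sm proteins to PRMT5, was at 7803, 7743 and 10017 in fl/fl, against 10428, 9144 and 8294 in KO. Its fl/fl replicate 3 is the high value of that group, and the genotypes overlap (log2 0.13, interval -0.225 to 0.482). Coprs, an adaptor that ties PRMT5 to histones, was the least abundant member of this set at 265 to 340 in fl/fl and 249 to 371 in KO (log2 0.07, interval -0.49 to 0.63). Some exonic bases of Wdr77 are shared with Atp5f1 on the other strand, and reads from those bases cannot be assigned by a kit that does not mark strand.

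In the SMN complex, 5 of 9 members had a fold change above 0 and 4 below, with a median log2 of 0.05. Smn1, the scaffold that binds methylated Sm tails through its Tudor domain, was at 1503, 1238 and 1514 scaled counts in fl/fl, against 2204, 1742 and 1800 in KO. Each KO library lies above each fl/fl library, and the means are 1418 ± 156.4 and 1915 ± 251.5 (SD, n = 3 each). Limma fitted a log2 difference of 0.43 (standard error 0.16, adjusted p = 0.221), which did not pass over all genes. It was 0.48 without fl/fl replicate 3 (limma, adjusted p = 0.116) and 0.47 without KO replicate 3 (limma, adjusted p = 0.404). Strap, also called unrip, a WD-repeat subunit, was at 12268, 11543 and 10616 in fl/fl, against 14631, 13157 and 11907 in KO, with KO replicate 3 inside the fl/fl range (log2 0.20, adjusted p = 0.431 by limma).

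Gemin5, which reads the snRNA sequence for the complex, was at 5048, 4587 and 1952 scaled counts in fl/fl, against 5205, 4986 and 4840 in KO. The 5 other libraries lie within 4587 to 5205, and fl/fl replicate 3 lies far under them, which gives a log2 fold change of 0.49 with all libraries and 0.06 without that library. Gemin5 has the second longest transcript of the members at 6214 bases, in the length class that was low in that library. Gemin4, at 3350 in the same library against 4937 to 6416 elsewhere, had a log2 fold change of 0.14 with that library and -0.13 without it. Its reads overlap those of Glod4 and Fam57a, so its values are uncertain. Ddx20, the DEAD-box helicase Gemin3, had means of 3766 ± 120 and 3912 ± 216 (SD, n = 3 each) and a log2 interval of -0.22 to 0.32. Gemin2, which holds the Sm pentamer, and the small subunits Gemin6, Gemin7 and Gemin8 had log2 fold changes of -0.04, -0.10, -0.24 and -0.24, with fl/fl replicate 3 the highest of the 6 libraries for each.

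The Sm ring genes varied together across the libraries. For all 7, KO replicates 1 and 2 lay above fl/fl replicates 1 and 2, an order held by 22.2% of all genes. Likewise fl/fl replicate 3 lay above the other fl/fl libraries for all 7 (43.67% of all genes), and KO replicate 3 lay below the other KO libraries (41.9% of all genes). Snrpd1, which carries the most arginine-glycine pairs, was at 6190, 5648 and 8225 scaled counts in fl/fl, against 8888, 7524 and 6723 in KO. Snrpd3, whose repeat stretch is printed above, was at 7583, 6625 and 9640 in fl/fl, against 10504, 9102 and 8576 in KO. In both, fl/fl replicate 3 reaches into the KO range, and without it the groups would be apart. Snrpe, a core ring subunit without a repeat tail, was at 5388, 4902 and 7031 in fl/fl, against 8073, 6717 and 6235 in KO. Snrpg, the smallest of the ring proteins by coding length, was at 5081, 4651 and 6650 in fl/fl, against 7062, 6420 and 5664 in KO. Snrpe and Snrpg show the same order of libraries as Snrpd1 and Snrpd3.

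The fold changes of these subunits were close to each other. The log2 values with all libraries were 0.288 for Snrpe, 0.260 for Snrpf, 0.253 for Snrpd3, 0.236 for Snrpg, 0.215 for Snrpd1 and 0.212 for Snrpd2 (limma, adjusted p = 0.425 to 0.571). Snrpb, which encodes SmB and SmB′, was the exception at -0.03, with 20708, 20226 and 27761 scaled counts in fl/fl and 24005, 23479 and 19552 in KO. Its sign turned with other scalings (0.06 with median-of-ratios size factors). Measured per length, the ring genes ranged in fl/fl from 71.4 ± 17.1 RPKM (reads per kilobase of deposited gene length, scaled to library size) for Snrpf to 457 ± 84.2 for Snrpb (SD, n = 3 each). Next below Snrpb were Snrpg at 311 ± 59.9, Snrpd3 at 294 ± 57.1, Snrpe at 262.5 ± 50.7 and Snrpd2 at 244 ± 42.7, neighbours that differ by less than their SD. These levels use the deposited gene lengths, which can differ from the annotated transcript, as for Snrpd3 with 604 against 3036 bases.

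**Figure D2:**
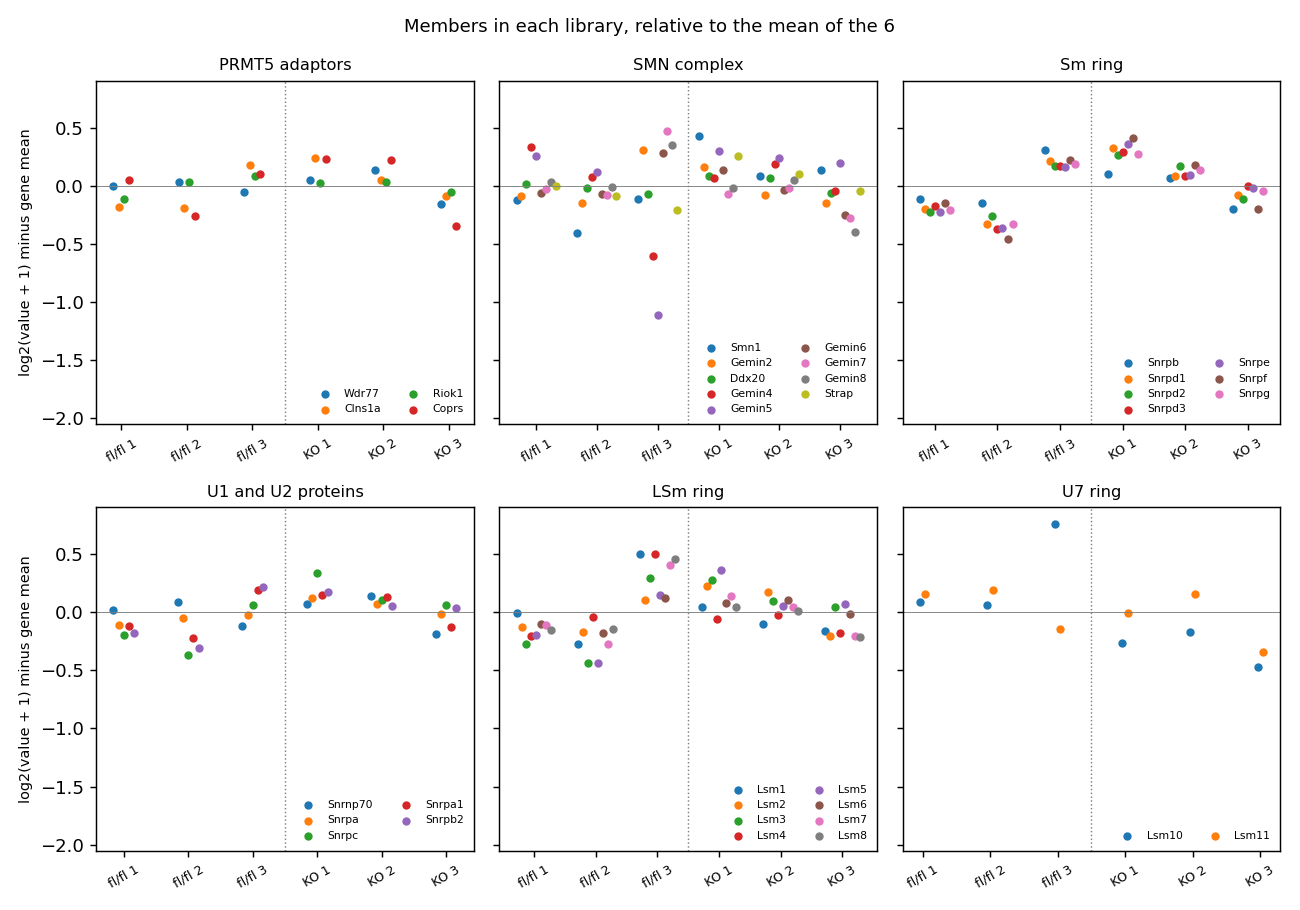
Level of each member in each library as log2(value + 1) minus the gene's mean over the 6 libraries, in 1 panel per role, with the genotypes separated by a dotted line. The Sm ring points form tight columns, with Prmt5 fl/fl replicate 3 level with the KO libraries, while Gemin4 and Gemin5 fall under all other points in that library.

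Among the proteins specific to U1 and U2, all 5 fold changes were above 0 and none passed the test. Snrpc, the zinc finger protein U1-C that steadies pairing at the 5′ splice site, was at 1369, 1217 and 1634 scaled counts in fl/fl, against 1986, 1681 and 1637 in KO. The groups do not overlap, but fl/fl replicate 3 at 1634 and KO replicate 3 at 1637 nearly meet (log2 0.335; limma, adjusted p = 0.339). Snrpa, the U1-A protein, had the narrowest interval of the 35 members at -0.13 to 0.37, and its groups were also apart, with 6058 to 6432 in fl/fl and 6459 to 7126 in KO. The U1-70K gene Snrnp70, whose protein bridges U1 to SR proteins, had a log2 fold change of 0.01, with 7539 ± 530 and 7614 ± 884 scaled counts (SD, n = 3 each). The U2 genes Snrpa1 and Snrpb2, which encode the partners U2-A′ and U2-B″, had log2 fold changes of 0.104 and 0.175, with fl/fl replicate 3 the highest library for both.

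The LSm ring split evenly, with 4 fold changes above 0 and 4 below. Lsm3, shared by the nuclear and cytoplasmic rings, was at 4937, 4413 and 7341 scaled counts in fl/fl, against 7255, 6382 and 6143 in KO. Lsm5, also shared, was at 1221, 1031 and 1548 in fl/fl, against 1792, 1453 and 1470 in KO. For both genes fl/fl replicate 3 lies inside or above the KO range, and the other fl/fl libraries lie under it (log2 0.28 and 0.32; limma, adjusted p = 0.5002 and 0.4159). Lsm4, the ring member with an arginine-glycine tail, was at 5879, 6594 and 9594 in fl/fl, against 6524, 6666 and 5995 in KO, so that fl/fl replicates 1 and 2 fall below or among the KO values and replicate 3 far above (log2 -0.17). Lsm1, which marks the cytoplasmic decapping ring, and Lsm8, which takes its place in the nuclear U6 ring, had log2 fold changes of -0.145 and -0.106. The ratio of Lsm1 to Lsm8 per length was 0.272, 0.224 and 0.254 in fl/fl and 0.246, 0.228 and 0.255 in KO, so the balance of the markers of these rings overlapped fully between genotypes. Lsm2, Lsm6 and Lsm7 had log2 fold changes of 0.127, 0.105 and -0.014.

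The U7 ring replaces SmD1 and SmD2 with LSm10 and LSm11. Lsm10 was at 1648, 1622 and 2631 scaled counts in fl/fl, against 1295, 1377 and 1119 in KO. Each KO library lies under each fl/fl library, with means of 1967 ± 575 and 1264 ± 132 (SD, n = 3 each) and a limma log2 difference of -0.605 (standard error 0.219, adjusted p = 0.207). Without fl/fl replicate 3, the highest value, it was -0.38 (limma, adjusted p = 0.141), and without KO replicate 3, the lowest, it was -0.52 (limma, adjusted p = 0.471). Lsm11, whose N-terminal extension recruits the histone cleavage factors, was at 1344, 1375 and 1088 in fl/fl, against 1196, 1346 and 947 in KO, with overlapping groups (log2 -0.13). Lsm10 is the only member whose KO replicates 1 and 2 both lay below fl/fl replicates 1 and 2, a pattern held by 36.2% of all genes.

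In the control library that stood apart, the medians of members under 4000 bases lay close to those of all genes of their length. For the 15 members under 1000 bases, the median log2 difference of fl/fl replicate 3 from the other controls was 0.476, beside 0.514 for all genes of that length. It was 0.342 for 10 members from 1000 to under 2000 bases, beside 0.38, and 0.027 for 8 members from 2000 to under 4000 bases, beside -0.009. The 2 longest members, Gemin5 and Lsm11, were at -1.30 and -0.32, on either side of the -0.614 of all genes of their length. The scatter within a length class is wide: Lsm1, at 2360 bases, lay at 0.65 and Snrnp70, at 1639 bases, at -0.17. The part of this trend in the fold changes was not tested beyond leaving the library out.

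**Figure D3:**
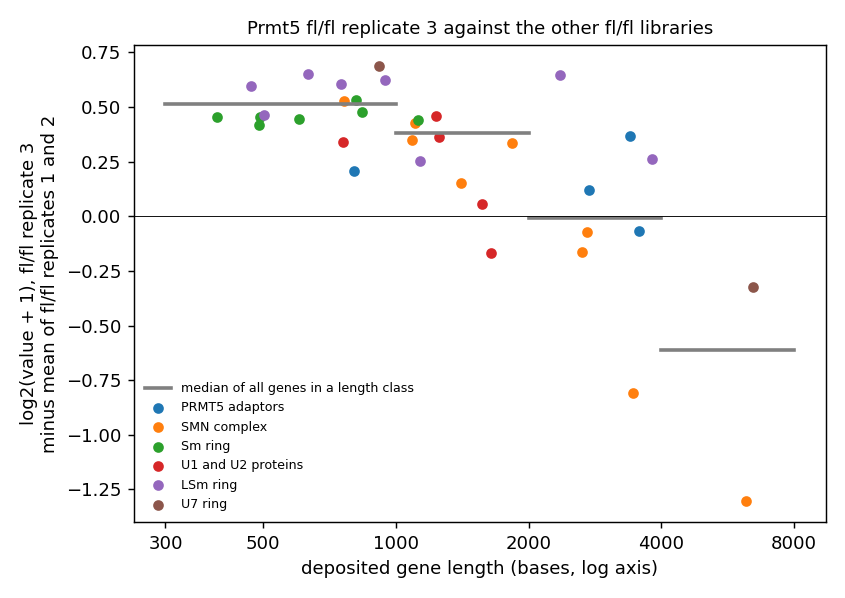
Difference in log2(value + 1) between Prmt5 fl/fl replicate 3 and the mean of the other fl/fl libraries (y) against the deposited gene length in bases (x, log axis), 1 point per member coloured by role; grey bars are medians of all genes with a mean of at least 100 in 4 length classes. The Sm ring points lie between 0.42 and 0.53, beside bars at 0.514 for genes under 1000 bases and, for Snrpb, 0.38 for the next class, and Gemin5 lies lowest at -1.30.

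Without fl/fl replicate 3, 10 members had an unadjusted p below 0.05 on the higher side (28.6%, against 7.48% of all genes) and 1 on the lower side (2.86%, against 16.3%). These were Smn1, Snrpd1, Snrpd2, Snrpd3, Snrpe, Snrpg, Snrpc, Snrpb2, Lsm3 and Lsm5, with Lsm10 on the lower side. Of the 10, 8 were among the 15 members under 1000 bases, a length at which 18.6% of all genes were on the higher side at that p, and 2 were among the 10 members from 1000 to under 2000 bases, where 10.1% were. None passed after adjustment, where the lowest limma adjusted p was 0.0568 for Lsm3, in a fit that called 2.68% of all genes. With fl/fl replicates 1 and 2 left out in turn, 1 and 0 members had an unadjusted p below 0.05 on the higher side, and without KO replicates 1, 2 and 3 in turn 0, 1 and 0. The median log2 fold change of the Sm ring was 0.24 with all libraries and 0.39 without fl/fl replicate 3. Without KO replicate 3 it was 0.32. Leaving out fl/fl replicate 3 also moved the median of all genes under 1000 bases, from -0.074 to 0.092, and that of the 15 members of this length from 0.215 to 0.374.

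With the replicate 3 libraries of both genotypes left out, a comparison of 2 with 2 chosen after their values were seen, 4 members passed the limma threshold, all higher in KO (11.4%, against 1.68% of all genes). These were Snrpd2 (log2 0.46, adjusted p = 0.0378), Lsm3 (log2 0.54, adjusted p = 0.0406), Snrpg (log2 0.47, adjusted p = 0.0438) and Snrpe (log2 0.52, adjusted p = 0.0491). In the same limma fit 18 members were at an unadjusted p below 0.05 on the higher side (51.4%, against 9.28%), all 7 of the Sm ring among them, and 1 on the lower side (2.86%, against 16.9%). KO replicates 1 and 2 lay above fl/fl replicates 1 and 2 for 25 members (71.4%, against 22.2% of all genes) and below for 1 (2.86%, against 36.2%). KO replicate 3 lay below both other KO libraries for 33 of 35 members (94.3%), and over all genes for 41.9%. So the higher Sm ring values in KO were seen mainly against fl/fl replicates 1 and 2. KO replicate 3 also lay above both of these for Snrpd1, Snrpd2, Snrpd3, Snrpe and Snrpg, but not for Snrpb and Snrpf. Fl/fl replicate 3 lay above KO replicate 3 for all 7.

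The make-up of each complex was compared by giving every member as a share of the complex's summed level per length within its own library, a measure that no scaling of whole libraries can change. It was added after the values were seen. In the Sm ring, Snrpb made up 24.5%, 25.9% and 25.1% of the summed level in fl/fl and 20.9%, 22.8% and 21.7% in KO. Here fl/fl replicate 3 falls between the other fl/fl libraries, and the genotypes do not overlap. The share of Snrpe was 14.5%, 14.3% and 14.5% in fl/fl and 16.04%, 14.86% and 15.75% in KO. That of Snrpg was 17.2%, 17.0% and 17.1% in fl/fl and 17.6%, 17.8% and 17.9% in KO, so a narrow spread within each genotype kept them apart. The other 4 ring members overlapped.

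The LSm ring and the SMN complex were apart for some members too. Lsm3 held 26.1%, 24.4% and 26.8% of its ring in fl/fl and 30.3%, 28.7% and 30.6% in KO, and Lsm5 was also apart on the higher side. Lsm4 held 20.9%, 24.5% and 23.5% in fl/fl and 18.28% to 20.05% in KO, and Lsm1 and Lsm8 were likewise apart on the lower side. In the SMN complex, Smn1 held 6.35%, 5.59% and 6.25% in fl/fl and 8.49%, 7.17% and 8.26% in KO. Strap was apart on the higher side, and Gemin7 and Gemin8 on the lower side.

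In all, 12 of 24 shares did not overlap between genotypes. An exact two-sided permutation test gave each of them p = 0.1, the lowest value possible with 3 libraries a side, and 0.2 after Benjamini-Hochberg adjustment over the 24, so this test could not pass whatever the shares. Shares within a complex depend on each other. With shares of reads in place of levels per length, 12 of 24 were also apart, with Snrpd1 and Snrpd3 added and Lsm1 and Smn1 lost. Over all genes the lower side was the more frequent: set against the Sm ring sum, 2.35% of all genes were apart above and 29.3% below, where the ring's own members counted 2 and 1 of 7. Against the LSm ring sum these were 3.68% and 20.6%, with 2 and 3 of 8 members, and against the SMN complex sum 5.86% and 21.6%, with 2 and 2 of 9. Members are part of their own sum and other genes are not, so these percentages are not a like-for-like background for the members' counts.

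**Figure D4:**
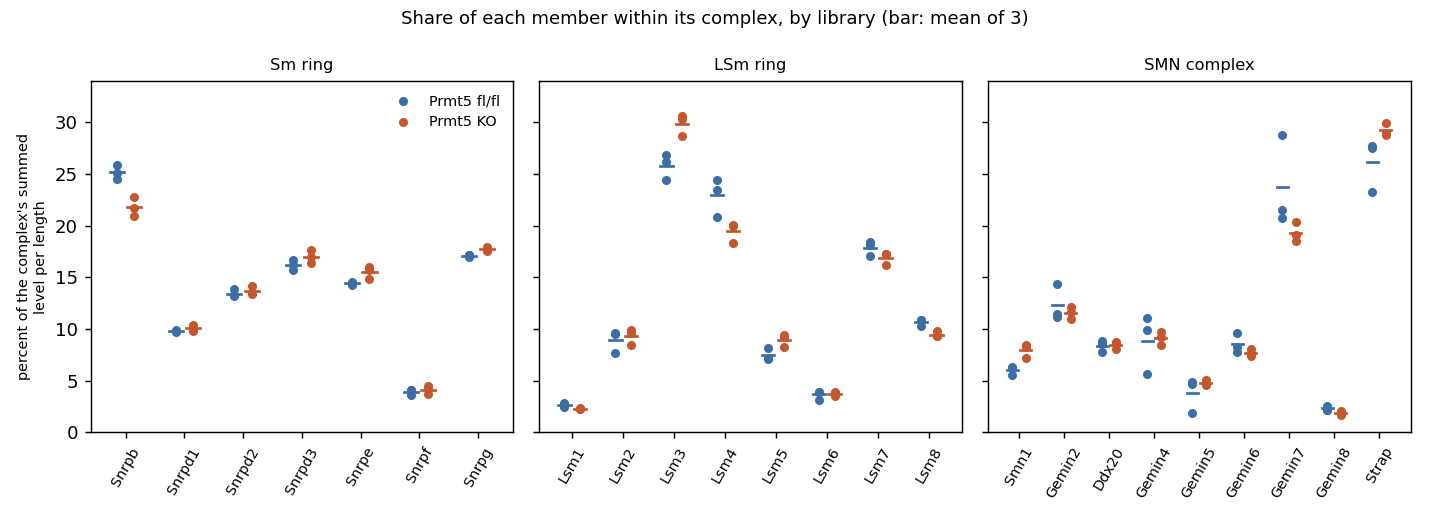
Share of each member in the summed level per length of its complex, in percent, for the 3 Prmt5 fl/fl libraries (blue) and the 3 Prmt5 KO libraries (orange), with bars at the means. Snrpb lies at 24.5% to 25.9% in fl/fl and 20.9% to 22.8% in KO, and Lsm3 at 24.4% to 26.8% and 28.7% to 30.6%.

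Factors that act before, after or beside these complexes were listed separately, 54 genes of which 52 could be tested. Limma called 1 of them higher in KO and 0 lower (0.73% of all genes were called), with 4 higher and 4 lower at an unadjusted p below 0.05 (4.58% and 13.6% of all genes). The called gene was Smndc1, also known as SPF30, a splicing factor with a Tudor domain like that of SMN. It was at 2014, 2162 and 1842 scaled counts in fl/fl, against 3962, 3670 and 3641 in KO, and rose by a log2 of 0.91 (standard error 0.13; limma, adjusted p = 0.0428). The groups lie well apart, yet the call was kept in 11 of 18 alternatives. It was lost without fl/fl replicate 1 (limma, adjusted p = 0.103), fl/fl replicate 2 (0.137), KO replicate 1 (0.228), KO replicate 2 (0.112) or KO replicate 3 (0.184), with limma's trend turned off (0.0579), and with the replicate number as a block (0.197). With 1 library left out its log2 fold change stayed between 0.85 and 0.96.

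Of 14 factors for snRNA export, capping, import and U6 maturation none was called by limma, and 3 had an unadjusted p below 0.05, 2 higher and 1 lower (4.58% and 13.6% of all genes). Mettl16, the methyltransferase of U6, was at 3726, 3732 and 3147 scaled counts in fl/fl, against 6453, 5478 and 5361 in KO (log2 0.705; limma, adjusted p = 0.0676), and it passed without fl/fl replicate 3 (limma, adjusted p = 0.0391). Snupn, the import adaptor for capped snRNPs, was at 783 to 870.5 in fl/fl, against 537.5 to 659 in KO (log2 -0.50; limma, adjusted p = 0.174), and Tut1, which adds the uridine tail of U6, at 3667 to 4011 and 4574 to 5041 (log2 0.32). Mettl16, Tut1 and Smndc1 lie above the fl/fl range in every KO library, as did 8.30% of all genes. Snupn lies below it, as did 19.9%. Xpo1 and Sart3 of this list also lie above it, and partner genes of other lists were apart on either side. Of 19 genes for snRNA transcription and Integrator cleavage none was called, with Snapc4, a subunit of the snRNA activating complex, at 2422, 3450 and 1201 in fl/fl and 4692, 4536 and 4641 in KO (log2 1.10; limma, adjusted p = 0.164). Without fl/fl replicate 3, the lowest value, its log2 fold change was 0.68 (limma, adjusted p = 0.0602). Snapc3 and Snapc5 of the same complex had log2 fold changes of -0.45 and -0.48, so its subunits did not share a direction. Among 9 decapping factors none was called (1 at an unadjusted p below 0.05, Dcp1b, log2 -0.355, where 13.6% of all genes were on that side), and among 5 tested histone processing factors none was called and none had such a p. Snrpn, the tissue-restricted relative of Snrpb, was listed at 0 in all 6 libraries. It shares exonic bases with Snurf and Gm38393 on the same strand, and Snurf was also listed at 0. How reads on shared bases were counted is unstated, so this 0 need not mean that the transcript was absent.

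Near copies and overlaps limit some of these counts. Of the 35 members, 14 have another annotated transcript of at least 95% identity over at least 200 bases, mostly processed pseudogenes that have no row in the table, and 10 share exonic bases with another gene. Neither holds for Lsm10 (chromosome 4, 126096623 to 126098584, plus strand, 2 exons, GRCm38) or Smn1 (chromosome 13, 100124852 to 100137690, plus strand, 9 exons). The called partner gene Smndc1 has a near copy, the processed pseudogene Gm5871, at 96.8% identity over 718 bases. This copy has no counts of its own here.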

How the data were processed

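Messenger RNA of 6 stem cell libraries was amplified (SMART-Seq v4) and sequenced from Nextera XT libraries, per the labels' protocols. Reads were aligned with STAR and counted with featureCounts on mm10, per the submitters' processing notes, with versions, annotation and strand setting unstated. In the authors' single deposited table, Prmt5 fl/fl replicate 2 is given as plain read counts, and the other 5 deposited columns hold a scaled signal, each count brought to a total of 44704636. Reversing that scaling gave whole reads for 100% of values within 1e-06.

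The log2(value + 1) of genes whose mean reached 10 was used, and the genotypes were compared over all genes with limma 3.58.1 (R 4.3.3; two-sided moderated test, trend on, Benjamini-Hochberg adjustment, threshold 0.05). This scale understates changes of low genes. EdgeR 4.0.16 and DESeq2 1.42.0 on the recovered reads, other pseudocounts, filters and scalings, a replicate block and leaving out libraries were alternatives. The limma, edgeR, DESeq2 and replicate block fits were tested on simulated counts, and the other steps were not. P-values measure the spread between pools of mice. Members, lists and rules were chosen with earlier results of these data known. Values in every library are given for the PRMT5 adaptors, Smn1, Sm and LSm genes with at least 4 arginine-glycine codon pairs, and the 10 members with the smallest p. Partner genes are named for the smallest p in their list, up to 3. Positions, overlaps and coding sequences came from GENCODE M21 (GRCm38), matched by symbol for all 35 members. No protein sequences were used. Replicates of a genotype differed by far more than counting error (chi-square per degree of freedom 23.31 or more).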

Additional observations from a re-analysis of the deposited data

How the results depend on the processing

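No member passed the threshold in any of the 17 other settings chosen at the start (lowest adjusted p 0.0568), and 4 did with the replicate 3 libraries of both genotypes left out, an alternative chosen after seeing the data. Members with an unadjusted p below 0.05 on the higher side numbered 1 in the reported fit, 3 with median-of-ratios size factors, 2 each with TMM factors, edgeR and DESeq2, 0 to 10 with 1 library left out, and 18 without both replicate 3 libraries. On the lower side there were 0 with quantile normalization and 0 with the replicate block, against 1, and 0 to 1 with 1 library left out. The members' median log2 fold change was 0.192 with median-of-ratios size factors, 0.184 with DESeq2, 0.046 to 0.193 with 1 library left out and 0.221 without both replicate 3 libraries. Over all genes the calls numbered 57 with median-of-ratios size factors, 67 with TMM, 64 with quantile normalization, 60 with edgeR, 981 with DESeq2, 1 with the replicate block, 3 to 378 with 1 library left out and 656 without both replicate 3 libraries, against 103. Called partner genes numbered 0 without limma's trend, 4 with DESeq2, 0 with the replicate block, 0 to 2 with 1 library left out and 2 without both replicate 3 libraries. The causes were not tested.

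The replicate numbers share a title prefix between 1 library of each genotype, but the labels do not say what it means. The same-number pairs had correlations of deviations of -0.14, 0.067 and -0.26, and the block was not used as the main design. With so few libraries these correlations cannot show that pairing is absent. The p-values of all other fits therefore ignore any pairing, including the matching of mice by litter and sex. The block changed no member's call, but no member was called without it and the block fit called only 1 of all genes. The unchanged calls therefore do not show whether pairing matters.

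Signs of small fold changes turned as follows. Gemin2, Snrpb and Lsm7 were at 0.045, 0.061 and 0.074 with median-of-ratios size factors, 0.021, 0.037 and 0.049 with TMM factors, 0.013, 0.027 and 0.026 with edgeR, and 0.036, 0.050 and 0.049 with DESeq2. With quantile normalization Wdr77 was at -0.012, Snrnp70 at -0.016 and Lsm7 at 0.014. With 1 library left out in turn, log2 fold changes ran from -0.040 to 0.260 for Coprs, -0.047 to 0.096 for Wdr77, -0.133 to 0.101 for Gemin2, -0.133 to 0.336 for Gemin4, -0.190 to 0.018 for Gemin6, -0.108 to 0.121 for Snrpb, -0.056 to 0.108 for Snrnp70, -0.319 to 0.071 for Lsm1, -0.316 to 0.037 for Lsm4, -0.155 to 0.185 for Lsm7, -0.210 to 0.096 for Lsm8 and -0.246 to 0.008 for Lsm11. Without both replicate 3 libraries Gemin2 was at 0.165, Gemin4 at -0.075, Gemin6 at 0.119, Gemin7 at 0.009, Gemin8 at 0.005, Snrpb at 0.214, Lsm1 at 0.115, Lsm4 at 0.083, Lsm7 at 0.283 and Lsm8 at 0.177. Riok1, at 0.000 in the reported fit, ran from -0.057 to 0.041 with 1 library left out. In all, 20 of 35 members kept their sign in all 18 alternatives. Replicates differed by more than counting noise, and the part of sequencing depth in these results was not tested.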
